A study of Mus musculus with 12 samples.

Results

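The haemoglobin genes Hba-a1, Hba-a2, Hbb-bs and Hbb-bt and the neutrophil genes S100a8 and S100a9 were followed through 12 single-cell libraries of myeloid cells sorted from the mouse brain. They were taken by symbol and are 6 of the 31053 genes in the deposited count matrices. All 6 were found, each under a single Ensembl identifier. Every library came from the whole brain of its own male C57BL/6J mouse at postnatal day 90, perfused with ice-cold HBSS and sorted for live CD45+/CD11b+ cells. The brain was opened either by cold Dounce homogenization (DNC) or by enzymatic digestion with heating (ENZ), with transcriptional and translational inhibitors (INHIB: actinomycin D, triptolide and anisomycin) or without them (NONE), giving 4 preparations of 3 mice each. INHIB mice were also perfused with actinomycin D and triptolide, so inhibitors in the perfusate and in the buffers cannot be told apart. The labels divide the libraries into 2 batches, and each preparation has mice in both. The mice carry no engineered allele.

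Haemoglobin is made of α-globin chains, here from Hba-a1 and Hba-a2, and β-globin chains, here from Hbb-bs and Hbb-bt, and its mRNA fills red cells and their precursors. Red cells lack CD45, so the sort should leave them out, but RNA freed from broken cells can still enter droplets. S100a8 and S100a9 encode the subunits of calprotectin, a calcium-binding heterodimer that is among the most abundant proteins of neutrophils and is also made by some monocytes. Neutrophils carry both sort antigens, so they can pass the gate where blood is left in the vessels or where neutrophils sit in the meninges. These genes are therefore often read as a sign of blood in brain myeloid preparations.

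The 12 libraries held 28426 barcodes and 33742845 UMIs, from 2118143 to 3654465 UMIs and from 1965 to 2745 barcodes per library. Between 97.9% and 99.3% of the barcodes of each library carried at least 3 of 12 microglia markers, the cell type the sort mainly recovers. Of 27914 distinct barcode sequences, 503 occurred in more than 1 library, at 2 to 16 per pair of libraries, and the barcodes rich in S100a8 and S100a9 described below were not among them. A count of 0 in a library allows up to 0.821 to 1.42 CPM (UMIs scaled to a common library total), the level of 3 UMIs, and intervals and such limits cover counting error only.

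The α-globin genes lie on chromosome 11 (GRCm38), with Hba-a1 (ENSMUSG00000069919) at chr11:32283511-32284465 and Hba-a2 (ENSMUSG00000069917) at chr11:32296489-32297298, both on the plus strand. The β-globin genes lie on chromosome 7 on the minus strand, with Hbb-bt (ENSMUSG00000073940) at chr7:103812524-103813996 and Hbb-bs (ENSMUSG00000052305) at chr7:103826534-103828096. S100a8 (ENSMUSG00000056054) lies at chr3:90668978-90670035 on the plus strand and S100a9 (ENSMUSG00000056071) at chr3:90692632-90695721 on the minus strand, with 22596 bases between them. All 6 are protein-coding, the longest transcript has 2 exons in S100a8 and 3 in the other 5, and none overlaps another annotated gene. The globin copies share much of their transcripts letter for letter. Of all 98-base stretches in the longest transcript, 57.0% of Hba-a1 and 75.1% of Hba-a2 also occurred in the partner gene, as did 62.7% of Hbb-bs and 55.0% of Hbb-bt. In the last 300 bases, where 3′-end reads fall, the shares were 51.7%, 43.8%, 21.7% and 21.2%. Reads from shared stretches fit both genes and are discarded by the counting, so single globin counts are uncertain and low. S100a8 and S100a9 shared no such stretch with each other.

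The 250 bases before the RefSeq start are shown for S100a8 and S100a9 because their counts moved together over the libraries, and for Hba-a2 because it shows how alike the globin copies are. The sequences are from RefSeq for GRCm38.p6, read 5′ to 3′ on the gene's strand. Capitals mark the letters TATAA, the core promoter motif, or TTGCNNAA, the C/EBP-type motif of myeloid genes. Both motifs were searched on both strands.
S100a8: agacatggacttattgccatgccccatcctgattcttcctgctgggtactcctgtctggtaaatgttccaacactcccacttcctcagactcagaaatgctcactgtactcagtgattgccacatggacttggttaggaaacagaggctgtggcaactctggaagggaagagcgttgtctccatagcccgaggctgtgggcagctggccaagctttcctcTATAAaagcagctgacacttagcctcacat
S100a9: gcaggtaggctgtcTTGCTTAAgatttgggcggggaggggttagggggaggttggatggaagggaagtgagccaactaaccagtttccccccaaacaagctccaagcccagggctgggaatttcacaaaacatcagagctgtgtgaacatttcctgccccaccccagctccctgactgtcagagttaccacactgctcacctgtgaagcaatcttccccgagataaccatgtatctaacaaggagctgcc
Hba-a2: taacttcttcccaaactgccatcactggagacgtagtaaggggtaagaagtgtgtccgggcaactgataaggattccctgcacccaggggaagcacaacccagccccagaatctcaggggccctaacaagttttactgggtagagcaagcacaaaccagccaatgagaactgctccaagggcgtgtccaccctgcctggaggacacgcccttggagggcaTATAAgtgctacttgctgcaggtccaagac
These windows are chr3:90668821-90669070 (plus strand), chr3:90695722-90695971 (minus strand) and chr11:32296242-32296491 (plus strand). The S100a8 window overlaps the annotated gene by 93 bases and that of Hba-a2 by 3, because GENCODE places the gene start further upstream. TATAA was in the S100a8 and Hba-a2 windows, each starting 30 bases before the start, and in 22.8% of all 32851 promoter windows. TTGCNNAA was in the S100a9 window, not in that of S100a8, and in 9.56% of all windows. The window of the β-globin gene Hbb-bs, not shown, also held it. Aligned over 247 bases, the Hba-a2 and Hba-a1 windows were identical at 247 positions, while those of S100a8 and S100a9 matched at 69 of 242.

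Haemoglobin transcripts were close to absent from every library. The 4 genes together gave 48 UMIs, or 1.42 CPM over all libraries, and Hbb-bs gave 26 of them, Hba-a1 10, Hbb-bt 8 and Hba-a2 4. In DNC-NONE replicates 1, 2 and 3 there were 4, 1 and 5 haemoglobin UMIs, and in DNC-INHIB replicates 4, 5 and 6 there were 3, 3 and 3. ENZ-NONE replicates 4, 5 and 6 had 3, 5 and 12, and ENZ-INHIB replicates 1, 2 and 3 had 0, 1 and 8. The 2 highest libraries were both enzymatic and both of batch 2, and the ranges of the 4 preparations overlapped. Mean levels were 1.17 CPM ± 0.672 (SD, n = 3) in DNC-NONE, 0.940 ± 0.126 in DNC-INHIB, 2.51 ± 1.48 in ENZ-NONE and 1.07 ± 1.56 in ENZ-INHIB. By batch, the level was 1.05 CPM ± 0.808 (SD, n = 6) in batch 1 and 1.80 ± 1.42 in batch 2.

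**Figure D1:**
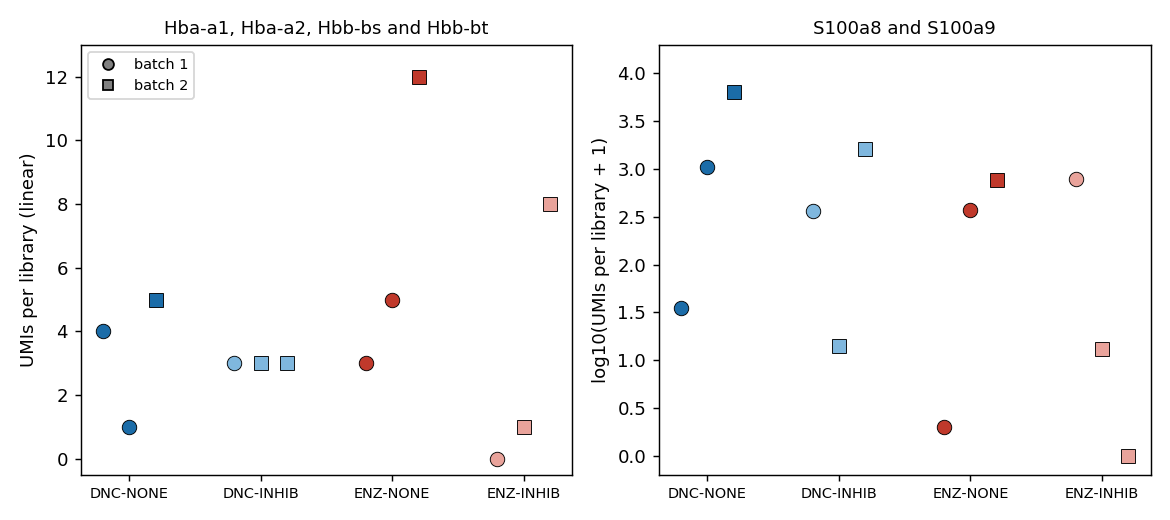
UMIs per library of the 4 haemoglobin genes (left, linear axis) and of S100a8 and S100a9 (right, log10 of UMIs + 1), with 1 point per library, colour for the preparation and shape for the batch. Haemoglobin runs from 0 to 12 UMIs and S100a8 plus S100a9 from 0 to 6299, and both spread within preparations.

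The β-globin gene Hbb-bs had between 1 and 5 UMIs in 10 libraries and none in the other two. Its partner Hbb-bt had 1 to 3 UMIs in 6 libraries, with its 3 in DNC-NONE replicate 3. Among the α-globin genes, Hba-a1 had 2, 2 and 3 UMIs in the ENZ-NONE libraries, 2 in ENZ-INHIB replicate 3, 1 in DNC-INHIB replicate 5 and 0 in the other 7. Hba-a2 had 1 UMI in ENZ-NONE replicate 5 and 3 in replicate 6, and was at 0 in the other 10 libraries. These counts are at or below 3 UMIs in most libraries, so no fold change is given for a single globin gene. The 6 embryonic and minor globin genes listed beside them had 0 UMIs in all barcodes. Of 20 listed genes of the red cell lineage, 19 were in the matrices and 15 of these were detected, with 0.0502% of the UMIs outside the S100-rich barcodes, and 8 passed the filter on low counts. None of those 8 was called in any of the 5 comparisons below.

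At the level of barcodes the haemoglobin signal was diffuse. A haemoglobin UMI was present in 39 barcodes (0.137%), of which 35 had a single UMI and 3 had 2, and no barcode reached 10. Per library the share of positive barcodes was 0% to 0.305%. For a library of this size, 0 positive barcodes allow a share of up to 0.109% to 0.153%. The positive barcodes looked like the other cells of the sort: 37 of the 39 carried at least 3 microglia markers, with a median of 10 of 12, their median total was 1236 UMIs, and 27 passed a quality filter set for this work (a minimum of 500 genes and 1000 UMIs, with mitochondrial UMIs up to 10%). None had a UMI of S100a8 or S100a9. The exception in count was a barcode of ENZ-NONE replicate 6 with 7 haemoglobin UMIs, from all 4 genes (Hba-a2 3, Hba-a1 2, Hbb-bs 1, Hbb-bt 1). That barcode had 952 UMIs, 586 genes and 9 microglia markers, and it held 7 of the 12 haemoglobin UMIs of its library.

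**Figure D2:**
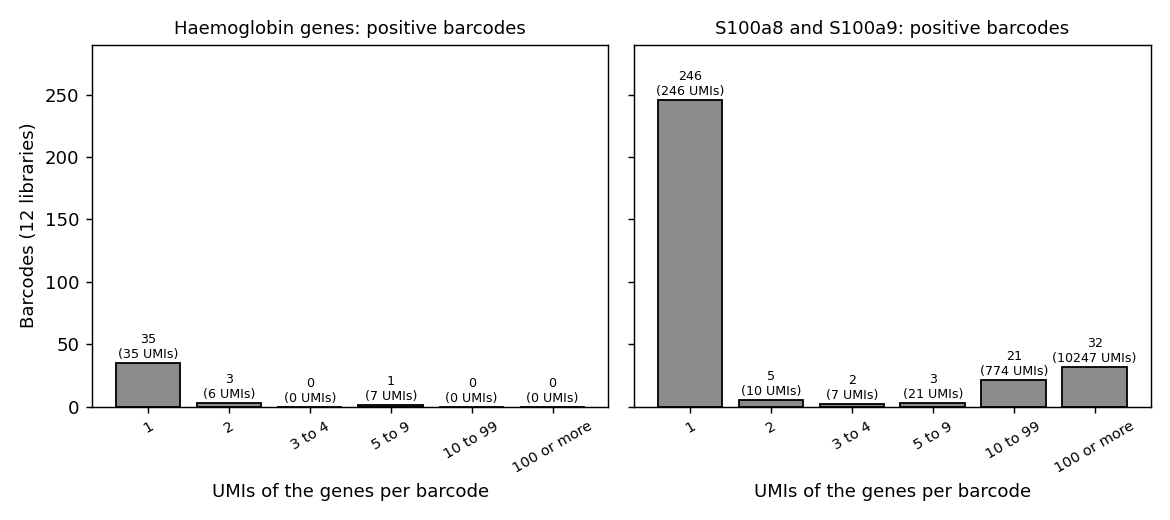
Number of barcodes (bars, from 0) by the number of UMIs they held of the haemoglobin genes (left) or of S100a8 and S100a9 (right), over all 12 libraries, with the UMIs those barcodes sum to in brackets. Haemoglobin stops at 1 barcode with 7 UMIs, while S100a8 and S100a9 fall into 246 barcodes with 1 UMI and 53 with 10 or more.

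S100a8 and S100a9 were far more abundant and followed another pattern. S100a8 gave 7219 UMIs (214 CPM) and S100a9 4086 (121 CPM), and 11021 of the 11305 UMIs (97.5%) came from 53 barcodes with 10 or more. These 53 were 0.620% of the barcodes at most in a library, and they occurred in 8 of the 12 libraries. The other 256 positive barcodes held 284 UMIs, and 246 of them had a single UMI. Few barcodes lay between: 3 had 5 to 9 UMIs (6, 7 and 8), and 4 had 10 to 19 (11, 12, 15 and 16).

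The counts varied more between mice of a preparation than between preparations. S100a8 had 15, 670 and 4166 UMIs in DNC-NONE replicates 1, 2 and 3, and 213, 9 and 998 in DNC-INHIB replicates 4, 5 and 6. In the enzymatic libraries it had 0, 202 and 457 UMIs in ENZ-NONE replicates 4, 5 and 6, and 482, 7 and 0 in ENZ-INHIB replicates 1, 2 and 3. Each preparation thus held a library with fewer than 20 UMIs beside one with at least 457. S100a9 went with S100a8, with 19, 378 and 2133 UMIs in DNC-NONE and 147, 4 and 613 in DNC-INHIB. It had 1, 173 and 314 UMIs in ENZ-NONE and 299, 5 and 0 in ENZ-INHIB. Over the 12 libraries the log2(UMIs + 1) of the pair had a Pearson correlation of 0.99 (Spearman 0.98), and 0.99 without the 2 libraries farthest from the median, a description of libraries that share their depth for both genes. DNC-NONE replicate 3 alone held 6299 of the 11305 UMIs, and without it the 53 barcodes were 36, which held 96.9% of the remaining UMIs.

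Summed over the pair, the level was 899 CPM ± 1168 (SD, n = 3) in DNC-NONE, 191 ± 225 in DNC-INHIB, 146 ± 133 in ENZ-NONE and 106 ± 179 in ENZ-INHIB. The SD exceeded the mean in 3 of the 4 preparations, and all ranges overlapped. Barcodes with 10 or more UMIs numbered 1, 4 and 17 in DNC-NONE replicates 1, 2 and 3, and 4, 0 and 6 in DNC-INHIB replicates 4, 5 and 6. They numbered 0, 4 and 12 in ENZ-NONE replicates 4, 5 and 6, and 5, 0 and 0 in ENZ-INHIB replicates 1, 2 and 3. By preparation this made 22, 10, 16 and 5. With a limit of 5 UMIs they were 24, 10, 17 and 5, and with 20 UMIs 21, 9, 15 and 4.

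Whether the preparation changes these transcripts was tested on UMIs summed over all barcodes of a library. In such sums fewer cells of a type and less RNA per cell cannot be told apart. S100a8 and S100a9 passed the filter on low counts and the 4 haemoglobin genes did not, so 2 of the 6 were tested among 10141 genes. A gene was called at an adjusted p under 0.05, with a log2 difference of at least 0.58 in either direction where 2 sides were compared. Across the 4 preparations neither was called by edgeR's quasi-likelihood F-test with Benjamini-Hochberg adjustment (adjusted p 0.606 for S100a8 and 0.633 for S100a9), where 1.39% of all genes were called. DESeq2 did not call them in any of the 5 comparisons either. By edgeR, 0 of 2 had an unadjusted p under 0.05 in any of them. Among the 10141 genes the number under that limit ran from 330 for the interaction to 1610 for batch. The mean difference of digestion from Dounce was −1.85 on the log2 scale for S100a8 (SE 1.05, 95% interval −4.07 to 0.37, edgeR adjusted p 0.444) and −1.61 for S100a9 (SE 0.96, interval −3.65 to 0.43, adjusted p 0.477), so 0 of 2 were called against 1.10% of all genes. Both values were lower after digestion, but within each batch the Dounce and enzymatic libraries overlapped, and with batch as a covariate the values were −1.54 and −1.36, again not called. In barcodes that passed the quality filter they were −4.10 and −4.03 (edgeR adjusted p 0.111 and 0.114), not called. Leaving out 1 library moved the S100a8 value between −4.65 and −0.84, with no call.

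Inhibitors gave no call either. Without inhibitors S100a8 had a log2 difference of 1.38 (SE 1.04, interval −0.83 to 3.60, edgeR adjusted p 0.918) and S100a9 1.39 (SE 0.96, interval −0.65 to 3.43, adjusted p 0.899), where 0.227% of all genes were called. In barcodes that passed the quality filter the sign turned, to −0.44 and −0.60. The S100a8 value was 0.37 without DNC-NONE replicate 3 and 4.18 without ENZ-INHIB replicate 1, and that of S100a9 was 0.43 and 4.07, with no call. The interaction of method and inhibitors was −1.83 for S100a8 (SE 2.08, interval −6.24 to 2.57, edgeR adjusted p 1.00) and −1.28 for S100a9 (SE 1.93, interval −5.36 to 2.80, adjusted p 1.00), where 0.158% of all genes were called. Its sign turned without DNC-NONE replicate 3 (0.21 and 0.64) and without ENZ-INHIB replicate 1 (3.76 and 4.08), and in filtered barcodes the values were −7.05 and −6.68, with no call. Batch 2 exceeded batch 1 by 0.85 for S100a8 (SE 1.11, interval −1.50 to 3.21, edgeR adjusted p 0.784) and 0.82 for S100a9 (SE 0.99, interval −1.27 to 2.91, adjusted p 0.764), where 0.266% of all genes were called, and by −0.34 and −0.35 without DNC-NONE replicate 3. With diffuse counts only the batch values were 2.02 and 1.66, and in filtered barcodes 0.13 and 0.20, with no call. The biological coefficient of variation was 1.46 for S100a8 and 1.35 for S100a9, against a median of 0.0942 over the 10141 genes.

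The haemoglobin genes could be tested only without the filter on low counts, among 17064 genes. In this fit 3.11% of genes were called between the 4 preparations, 1.41% for digestion, 0.715% for inhibitors, 0.422% for the interaction and 0.522% for batch. None of the 20 tests of a haemoglobin gene was a call by edgeR with Benjamini-Hochberg adjustment (lowest adjusted p 0.363, for Hba-a1 with digestion). Of these tests 2 had an unadjusted p under 0.05, both of Hba-a1, between the 4 preparations and for digestion. The share of all genes under that limit was not counted in this fit. S100a8 and S100a9 were called in all 5 comparisons of this fit, in which every gene received the same spread for its abundance. With robust estimation, which gives such variable genes their own spread, none of the calls was left.

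The 53 barcodes had the RNA of neutrophils. They held 11 to 890 S100a8 and S100a9 UMIs (median 156), or 2.29% to 30.7% of all their UMIs (median 17.4%). At least 3 of 24 neutrophil markers were found in 50 of the 53, with a median of 9, and this panel made up 17.3% of their UMIs against 0.0293% in all other barcodes. The share was lower in ENZ-NONE replicate 6, where the panel gave 271 of 6004 UMIs. Beside S100a8 and S100a9, which chose the barcodes, and among genes with at least 10 UMIs there, the 10 with the largest ratio of their share of UMIs in the 53 to that in all others were Camp, Ngp, Wfdc21, Ltf, Ly6g, Lcn2, Retnlg, Rflnb, Il1f9 and Cebpe, from 27214-fold for Camp to 4510-fold for Cebpe. Camp encodes the cathelicidin antimicrobial peptide, Ngp a neutrophil granule protein, Ltf lactoferrin and Lcn2 an iron-siderophore binding protein. Ly6g is the surface antigen that defines mouse neutrophils, and Cebpe encodes the C/EBPε factor of granulocyte maturation. At least 89.0% of the UMIs of each of these genes lay in the 53 barcodes, the lowest share being that of Cebpe.

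Markers of other cell types were at low levels in them, and the monocyte panel was above its level elsewhere. The 12 microglia markers made up 0.160% of their UMIs against 4.64% elsewhere, 12 barcodes had none of them and 9 had at least 3. The monocyte panel made up 0.799% against 0.0116%, with at least 3 of its 12 genes in 8 barcodes. Of its 484 UMIs there, Chil3 gave 413 and Ly6c2 42, while Ccr2, F13a1, Fn1, Vcan and Ace gave none. The border macrophage and platelet panels were at 0. The lymphocyte panel gave 6 UMIs and the endothelial panel 2. No barcode of the 53 held a haemoglobin UMI. No doublet caller was run, and mixed droplets were not tested.

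Most of these barcodes were small, and the quality filter removed them. They had 250 to 5095 UMIs (median 771) and 157 to 1544 genes (median 343), while the median over all barcodes of a library was 880 to 1458 UMIs. The filter left 12 of the 53, with 7 in DNC-NONE, 3 in DNC-INHIB, 2 in ENZ-INHIB and 0 of 16 in ENZ-NONE. In ENZ-NONE the level of the pair fell from 146 CPM to 4.20 with the filter, and in DNC-NONE it was 944.

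**Figure D3:**
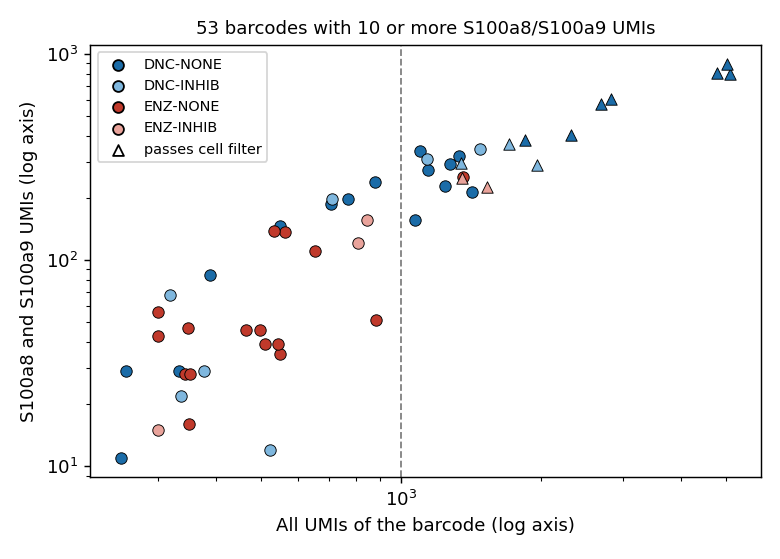
S100a8 and S100a9 UMIs against all UMIs (both log axes) in the 53 barcodes with 10 or more, coloured by preparation, with triangles for the 12 that pass the quality filter and a dashed line at 1000 UMIs. The ENZ-NONE barcodes lie at 300 to 1358 UMIs and hold no triangle.

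Within the 53 barcodes, granule genes set apart 2 ranges. The proteins of the specific granules (Camp, Ngp, Ltf, Lcn2) are made while neutrophils mature in the marrow, and the genes Retnlg, Mmp8, Mmp9, Cxcr2 and Csf3r are expressed late in maturation, although Csf3r is also expressed by microglia. These lists were drawn up after the data had been seen, so their values are a description. The specific granule genes made up at least 8.85% of the UMIs in 28 barcodes (median 17.2%) and at most 1.82% in the other 25 (median 0%), with none between. The late genes had a median of 0.127% in the first range and 2.14% in the second. The first range held 121 to 890 S100a8 and S100a9 UMIs per barcode and 706 to 5095 UMIs in all, and the second 11 to 147 and 250 to 885. S100a8 exceeded S100a9 in both, by 1.83 and 1.36 times. All 12 barcodes that passed the quality filter were of the first range.

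The libraries held these ranges in unlike numbers. DNC-NONE replicate 3 had 14 barcodes of the specific granule range and 3 of the other, DNC-INHIB replicate 6 had 5 and 1, ENZ-INHIB replicate 1 had 4 and 1, and DNC-NONE replicate 2 had 3 and 1. DNC-INHIB replicate 4 had 1 and 3, ENZ-NONE replicate 5 had 1 and 3, DNC-NONE replicate 1 had 0 and 1, and ENZ-NONE replicate 6 had 0 and 12. In ENZ-NONE replicate 6 the specific granule genes gave 7 UMIs, all of Lcn2, among 6004 (0.117%), against 16.6% of the UMIs in DNC-NONE replicate 3. Its late genes gave 2.76% against 0.585%, with 144 Retnlg UMIs (a resistin-like secreted protein) in the 12 barcodes of ENZ-NONE replicate 6 and 143 in the 17 of DNC-NONE replicate 3. With 8 libraries that hold such barcodes, and 1 of them with all ENZ-NONE barcodes but 4, the preparation and the mouse cannot be told apart here.

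**Figure D4:**
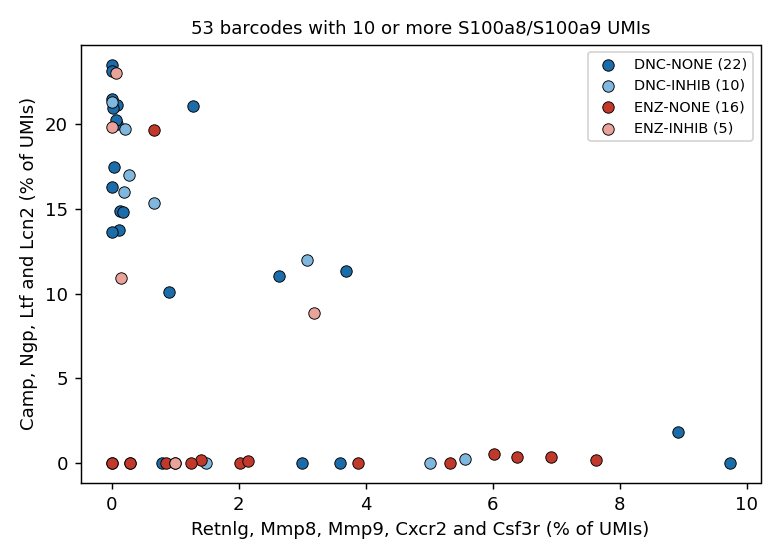
Share of UMIs from the specific granule genes against that from the late genes in each of the 53 barcodes, coloured by preparation with its number of barcodes. The upper range starts at 8.85% and holds 28 barcodes, 1 of them from ENZ-NONE, and the lower range ends at 1.82%.

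Genes of the primary granules (Mpo, Elane, Prtn3, Ctsg), which are made earliest, were found in 1 of the 53, with 22 UMIs (18 of Elane), in DNC-NONE replicate 3. At least 2 of 5 cell cycle genes were found in 3 barcodes, also of DNC-NONE replicate 3, and these had 573, 801 and 890 S100a8 and S100a9 UMIs.

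Outside the 53 barcodes the pair was spread thinly, mostly over cells of the main type. Of the 256 barcodes with 1 to 9 UMIs, 247 carried at least 3 microglia markers. The barcode with 8 UMIs had 6 monocyte genes and 2 microglia markers. That with 7 UMIs had 5 neutrophil markers and 2 microglia markers. At least 3 neutrophil markers were found in 25 barcodes outside the 53, 8 of them in DNC-NONE replicate 1. Csf3r and Chil1 gave most of the panel's UMIs outside the 53, so these 25 were not taken to be neutrophils. The share of barcodes with 1 to 9 UMIs of the pair was 0.0786%, 1.04% and 4.59% in DNC-NONE replicates 1, 2 and 3. It was 0.365%, 0.476% and 1.13% in DNC-INHIB replicates 4, 5 and 6. It was 0.0434%, 0.200% and 0.956% in ENZ-NONE replicates 4, 5 and 6, and 0.573%, 0.593% and 0% in ENZ-INHIB replicates 1, 2 and 3. The exact 95% interval of DNC-NONE replicate 3 (Clopper-Pearson, 3.84% to 5.45%) lay above those of the other 11 libraries, the highest of which ended at 1.60%. Among its barcodes with microglia markers, a cell type in which these genes are not usually found, the share was 4.58%. These single UMIs are not read as expression, and whether they came from free RNA was not tested. Thinned to 500 UMIs per barcode, the share with any UMI of the pair was 0% to 3.24% per library, and it was 0% to 5.18% before thinning. Thinning left out barcodes with fewer than 500 UMIs, among them 16 of the 53.

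The share of diffuse positive barcodes was compared with the rich barcodes of the same library. Pearson's r between the UMIs in barcodes with 10 or more and the share of other positive barcodes was 0.98 over 12 libraries (Spearman 0.77), and 0.77 without the 2 libraries farthest from the median. S100a8 exceeded S100a9 by 1.77 times in the 53 barcodes and by 1.78 times in the others, with UMIs pooled over the libraries. DNC-NONE replicate 3 gave 6170 of the 11021 UMIs in rich barcodes and 129 of the 284 diffuse ones. Its diffuse UMIs were 84 of S100a8 and 45 of S100a9. Other libraries differed, with 28 and 9 in DNC-NONE replicate 2 and 1 and 3 in ENZ-NONE replicate 5. There were 10.8 to 172 diffuse UMIs per 1000 in rich barcodes, the highest in DNC-NONE replicate 1 with 5 diffuse UMIs beside 29. DNC-INHIB replicate 5 and ENZ-INHIB replicate 2 had 13 and 12 diffuse UMIs with no rich barcode, and their shares of 0.476% and 0.593% were above the 0.365% of DNC-INHIB replicate 4 and the 0.200% of ENZ-NONE replicate 5, which had 4 rich barcodes each. Between the UMIs of haemoglobin and of the pair the Pearson correlation was 0.07 and the Spearman correlation −0.08 over the 12 libraries, and Pearson's r was 0.38 without the 2 libraries farthest from the median.

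**Figure D5:**
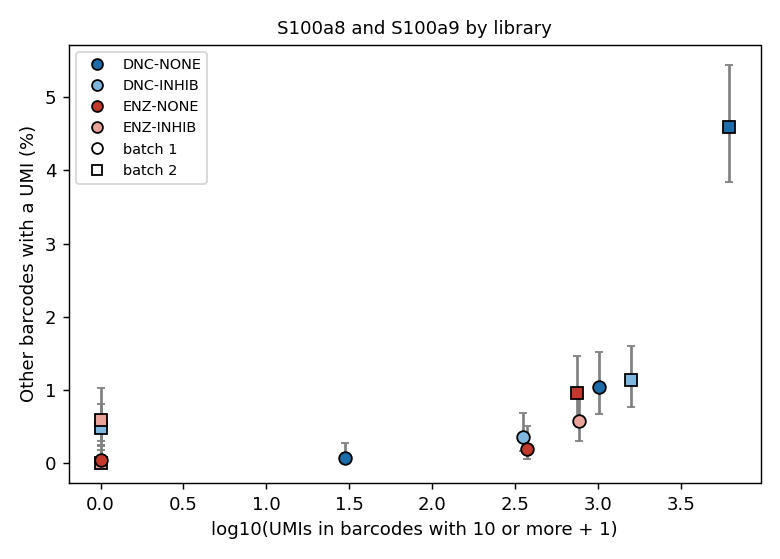
Share of the other barcodes with a UMI of S100a8 or S100a9 (bars, exact 95% intervals) against log10(UMIs + 1) in barcodes with 10 or more, 1 point per library, coloured by preparation with the shape for the batch. DNC-NONE replicate 3 is highest on both axes, and 4 libraries lie at 0 on the horizontal axis with shares of 0% to 0.593%.

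The genes most like the pair over the libraries were 2 of the granule and secreted neutrophil genes named above and Ttc7b. Among the genes in the fit, the log2 CPM of Wfdc21 had a Pearson correlation of 0.97 with that of S100a8 plus S100a9 over 12 libraries, Lcn2 0.93 and Ttc7b 0.88. The genes most like haemoglobin were Alkbh2 (0.87), Vsig10l (0.86) and Dusp6 (0.85), none of them a red cell gene, over libraries with 0 to 12 haemoglobin UMIs.

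Of the listed genes, 5 were called for digestion, where 1.10% of all genes were called: 1 of 13 neutrophil markers tested, 2 of 4 lymphocyte genes and 2 of 4 cell cycle genes. The neutrophil marker, of 24 listed, was Chil1, at −0.68 (SE 0.12, edgeR adjusted p 0.00541), with 43.98 to 55.8 CPM in Dounce and 19.7 to 36.2 in enzymatic libraries. Only 1.54% of Chil1 UMIs lay in the 53 barcodes. The median log2 difference of the 13 neutrophil markers tested was −0.68 for digestion, the value of Chil1 itself, and 0.80 for inhibitors. Over all genes tested it was 0.01 and 0.00. All 4 specific granule genes were tested and none was called, and neither was any of 4 late genes tested. Of the monocyte panel 7 of 12 were tested. Nr4a1 was called between the 4 preparations (adjusted p 0.0218 by the edgeR F-test). It had 11.9, 4.72 and 19.3 CPM in ENZ-NONE replicates 4, 5 and 6 and 0.274 to 4.26 in the other libraries. Only 1 Nr4a1 UMI lay in the 53 barcodes and 143 lay elsewhere. Chil3, of whose UMIs 54.9% lay in the 53 barcodes, was called for batch at 1.87 (SE 0.50, edgeR adjusted p 0.0498). Of the lymphocyte panel 4 of 14 were tested, and Gzma (7.88, edgeR adjusted p 0.000818) and Nkg7 (3.71, adjusted p 0.00837), genes of cytotoxic cells, were higher after digestion. Gzma gave 308 UMIs in the enzymatic and 1 in the Dounce libraries, none of them in the 53 barcodes. Top2a (−2.36, adjusted p 0.00854) and Birc5 (−2.20, adjusted p 0.0199 by edgeR) of the 4 cell cycle genes tested were lower after digestion, with 7 and 11 of their UMIs in the 53 barcodes and 101 and 81 elsewhere. No gene was called among the 12 microglia, 10 border macrophage, 2 platelet and 2 endothelial markers tested.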

How the data were processed

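Sorted brain myeloid cells of 12 mice were profiled as 1 droplet library per mouse, with 3 mice in each of 4 preparations. Per the labels, the authors demultiplexed with bcl2fastq and aligned and counted UMIs with Cell Ranger 3.0.0 on mm10. The deposited matrices hold raw UMI counts per gene and barcode, not normalized. Counting discards reads that fit several genes, which lowers counts of the globin copies. All 28426 deposited barcodes were used as the main set, no clusters were made and no doublet caller was run. Barcodes were described by how many marker genes of a listed panel they held, with at least 3 as the limit, and by 10 or more UMIs of a gene set.

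Counts were summed per library and tested with edgeR 4.0.16 (TMM, filterByExpr, quasi-likelihood test, Benjamini-Hochberg adjustment) in R 4.3.3, with the 4 preparations as groups for method, inhibitors and their interaction, and with batch added for the batch comparison. Cells were never treated as replicates. Libraries are separate mice, so the spread is that between mice. Shares have exact Clopper-Pearson 95% intervals, and a count of 0 was given a limit of 3 counts. Depth was 2118143 to 3654465 UMIs per library. Positive shares were recomputed with each barcode thinned to 500 UMIs, and barcodes with fewer were left out. Python 3.11.15, numpy 2.4.6, scipy 1.17.1 and pandas 2.3.3 were used for the rest. The fit was tested on simulated data.

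Named genes were the 6 members, at most 4 called genes per panel and comparison, the 3 genes most correlated with each set over the libraries, and the 10 genes with the largest ratio of shares in rich barcodes, members left out, among genes with at least 10 UMIs there. The members and lists were chosen with earlier results of these data known. The granule, late and cell cycle lists, and the split between 2% and 5% of UMIs from specific granule genes, were chosen after seeing the data. Alternatives were DESeq2 1.42.0, its size factors in edgeR, no filter on low counts, batch as a covariate, a replicate block, a quality filter on barcodes (at least 500 genes, at least 1000 UMIs, at most 10% mitochondrial UMIs), diffuse counts only, limits of 5 and 20 UMIs, thinning, and leaving out each library. Robust estimation of the spread, and leaving out each library from totals over rich barcodes, were added after seeing the data. Annotation was GENCODE mouse release 21 and RefSeq for GRCm38.p6, and 30934 of 31053 gene identifiers matched.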

Additional observations from a re-analysis of the deposited data

Results flagged for a closer look

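Extreme libraries were looked for with Dixon's test in groups of 6 libraries that share a method, an inhibitor state or a batch, in 72 groups, of which 18 had one. For normally distributed values chance gives about 1 in 20 such groups, a rate that does not hold for these sparse counts. The groups share libraries and the measures overlap, so the 18 are not independent.

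DNC-NONE replicate 3 accounts for most of them. Its S100a8 plus S100a9 level was 2222 CPM, with 464 next among the Dounce and among the no-inhibitor libraries and 441 next in batch 2. S100a8 alone was 1470 CPM and S100a9 753 CPM there, each apart from the other 5 libraries in the same 3 groups. It had 17 barcodes with 10 or more UMIs where the next Dounce library had 6, and its share of diffuse positive barcodes was 4.59%, again apart in all 3 groups. Hbb-bt was 1.06 CPM in this library, apart among Dounce and batch 2 libraries, which is 3 UMIs.

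The other values rest on 1 to 3 UMIs of an α-globin gene, and a lone library above 0 is extreme by construction. Hba-a1 was 0.309 CPM in DNC-INHIB replicate 5 and 0 in the other Dounce libraries. Hba-a2 was 0.472 CPM in ENZ-NONE replicate 5, alone in batch 1, and 1.01 CPM in ENZ-NONE replicate 6, alone in batch 2.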

How the results depend on the processing

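Of 468 values under alternatives, 413 kept their direction and their side of the threshold, moved by less than the spread or, for counts, stayed within a set ratio. Leaving out 1 of 3 libraries cannot move the mean of a preparation by as much as its SD. Those means were therefore bound to be among the 413, which is not a measure of robustness. Without the filter on low counts, genes called numbered 530 between preparations, 240 for digestion, 122 for inhibitors, 72 for the interaction and 89 for batch, and 2 of the members were called in each. With robust estimation added they numbered 394, 182 and 49 for preparations, digestion and batch. Robust estimation with the filter called 9 genes for inhibitors and 7 for the interaction, and DESeq2 called 3 for batch. In filtered barcodes the inhibitor difference turned to −0.44 for S100a8 and −0.60 for S100a9, the S100a8 plus S100a9 level in ENZ-NONE was 4.20 CPM (4.14 with diffuse counts only), and that of haemoglobin in DNC-INHIB was 0.721 CPM. Thinned, 0.0813% of DNC-INHIB barcodes were positive for haemoglobin, and 1 ENZ-NONE barcode held 5 or more haemoglobin UMIs. Filtered barcodes also moved the digestion difference to −4.10 and −4.03 and the interaction to −7.05 and −6.68, the lowest interaction values of any alternative, with no call. The cause was not tested.

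Leaving out each library gave 81 to 132 genes called between preparations, 77 to 114 for digestion, 11 to 30 for inhibitors, 6 to 19 for the interaction and 16 to 42 for batch, and 0 members in each. The inhibitor difference ran from 0.37 to 4.18 for S100a8 and from 0.43 to 4.07 for S100a9. The interaction ran from −3.48 to 3.76 for S100a8 and from −2.83 to 4.08 for S100a9, with 0.21 and 0.64 without DNC-NONE replicate 3. The batch difference ran from −0.34 to 2.17 and from −0.35 to 2.02, lowest without DNC-NONE replicate 3. S100a8 plus S100a9 ran from 237 to 1343 CPM in DNC-NONE, 66.4 to 285 in DNC-INHIB, 88.7 to 219 in ENZ-NONE and 2.11 to 158 in ENZ-INHIB. Haemoglobin ran from 0.877 to 1.54 CPM, 0.874 to 1.00, 1.74 to 3.21 and 0.176 to 1.60. Rich barcodes ran from 36 to 53, with 96.9% to 97.6% of the UMIs and 12.4% to 16.1% from specific granule genes.

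The labels do not say whether the numbers 1 to 6 pair libraries. As deviations from their group means, same-numbered libraries had correlations of −0.155 to 0.155, and 1 of 12 correlated best with its own number. These values showed no pairing but cannot exclude it, because batch was not removed before correlating. With the number as a replicate block, 1 gene was called for batch, and S100a8 and S100a9 stood at −6.26 and −6.45, not called. The 4 haemoglobin genes lay at or below the 3-count limit in most libraries, so differences of a few UMIs were not detectable at this depth.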
